A study of Drosophila melanogaster with 9 samples.

Results

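Gene expression was followed over a series of 1, 2 and 3 X chromosomes in Drosophila melanogaster larvae, with all 9 of the 9 libraries of the study placed by their X copies. The 3 male libraries (XY) carried 1 X, the 3 normal female libraries (XX) carried 2, and the 3 metafemale libraries carried 3, each beside a diploid set of autosomes. Males and normal females were Canton S larvae of the third instar, the stage before the pupa. Metafemales were progeny of C(1)DX,ywf/winscy females, whose attached X chromosomes carry the markers y, w and f, crossed to Canton S males, so that each metafemale received both attached X chromosomes and a paternal X. Third-instar metafemales were picked by sex and by their black mouthparts, and such animals rarely survive to adulthood. All larvae were grown at 25 °C, ribosomal RNA was removed, and paired reads of 150 nt were sequenced. Genes were grouped by the shape of their level over the 3 doses, which is rising, falling, highest or lowest at 2 copies, changed at a single step, or flat.

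The step from 1 to 2 copies is a 2-fold change in X dose, and the step from 2 to 3 copies is a 1.5-fold change. In Drosophila the number of X chromosomes sets the activity of Sex-lethal (Sxl), the switch gene of female development. Without Sxl, as in males, the MSL complex assembles on the X with its roX RNAs and raises transcription of the male X. A change in the dose of a whole chromosome can also alter genes elsewhere in the genome, in the same or in the opposite direction, and subunits of a complex encoded on different chromosomes can thereby come to unequal levels. The step from 1 to 2 copies therefore also changes sex, the Y chromosome, the gonad and the state of the MSL complex, and the step from 2 to 3 also changes the parental strain and the attached X, so the number of X chromosomes and these differences cannot be told apart. Both steps share the female libraries. Nothing in the labels says that the replicates were separate cultures, so that p-values measure only the spread between these libraries.

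The libraries held 130919406 to 184268612 counts. The X took 12.8% ± 0.607 of the gene counts in males, 13.8% ± 0.431 in females and 17.7% ± 0.193 in metafemales (SD, n = 3 each), and the male and female ranges overlapped slightly (12.2 to 13.41% and 13.37 to 14.23%). Male replicate 2 stood apart from the other males (Pearson correlation of log2 levels over genes 0.973 and 0.963, against at least 0.987 for every other pair of replicates). Metafemale replicate 1 had a smaller share of counts in newly assembled transcripts than the other 8 libraries (13.45% against 24.55 to 32.59%). The 12 Y-linked fertility genes, which act in sperm formation, had summed levels of 229.3 to 601.4 CPM (counts scaled to library size by TMM) in males and 0 in every female and metafemale library. roX1 stood at 363 to 409 CPM in males and at 5.53 to 27.1 CPM in the other 6 libraries.

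Relative to autosomal genes, X-linked genes were higher at each added X, and the gain was larger from 2 to 3 copies than from 1 to 2. The median log2 level of 2004 X-linked protein-coding genes minus that of 10534 autosomal ones was −0.295 ± 0.025 in males, −0.142 ± 0.018 in females and 0.41 ± 0.012 in metafemales (SD, n = 3 each), and the groups did not overlap. The ratio of X to autosome was thus 1.112-fold higher with 2 copies than with 1 and 1.467-fold higher with 3 than with 2 (exact permutation p = 0.1 for each step, 2-sided, the smallest that 3 libraries against 3 can give). The slope was 0.353 on the log2 scale per copy (exact permutation p = 0.00119, the smallest that reassigning the 9 libraries can give). These are levels per unit of sequenced RNA, so fewer cells of a type and less RNA per cell cannot be told apart.

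**Figure D1:**
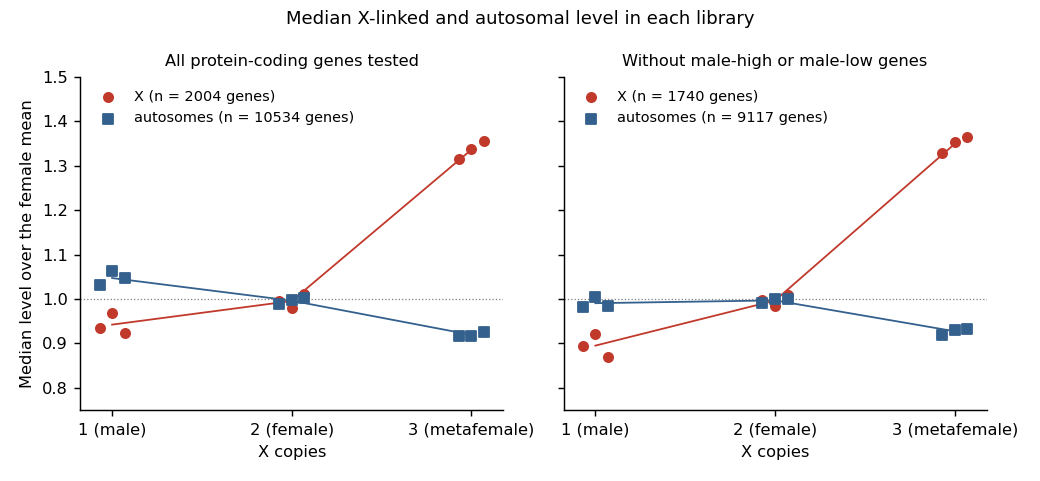
Median level of X-linked and autosomal protein-coding genes in each library, over the female mean, by number of X chromosomes. The left panel holds all such genes tested and the right panel those without a sex pattern. Each point is a library and each line joins the group means. In both panels the X-linked medians of the 3 metafemale libraries lie above those of all 6 others. The autosomal medians step down from males to females to metafemales on the left. On the right those of males and females overlap, and those of metafemales lie below.

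The X-linked median on its own was 1.011-fold higher in females than in males (exact permutation p = 0.8) and 1.355-fold higher in metafemales than in females (p = 0.1, exact). The first of these was −0.014 on the log2 scale without male replicate 3, against 0.015 with all libraries, and −0.076 with scaling by total counts. The autosomal median was 0.909-fold from 1 to 2 copies and 0.924-fold from 2 to 3, with no overlap of the groups at either step (exact permutation p = 0.1 each), and its slope was −0.126 per copy (exact permutation p = 0.00119). Scaled on autosomal genes alone, its second step was −0.029 on the log2 scale in place of −0.114. The arms 2L, 2R, 3L and 3R each had medians below 1 at both steps, from 0.879- to 0.919-fold at the first and from 0.912- to 0.945-fold at the second. The small chromosome 4 had no slope past its spread (0.036 per copy, exact permutation p = 0.64).

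Leaving out genes that differed strongly between the sexes moved the first-step medians. Genes with a sex pattern, for which females and metafemales both lay more than 8-fold below the male level or both more than 8-fold above it, numbered 1997 male-high (14.2% of the 14038 genes tested) and 9 male-low (0.0641%). All 26 spermatocyte and sperm genes of a marker list (among them dj, fzo and Mst87F) were lower at the first step (19.6% of all genes). Their summed level was 1144 to 1621 CPM in males, 27.68 to 34.02 CPM in females and 24.14 to 52.61 CPM in metafemales, so it differed between the sexes and overlapped between 2 and 3 copies. Of 5 genes tested from a list of ovary and yolk genes, the yolk protein genes Yp2 and Yp3 were male-low. At the first step the 2 X-linked members without a sex pattern (median log2 0.09) and the 1 autosomal member (−0.77) were not called. The eggshell genes Vm26Ab, Cp19 and Cp38 were at 0 counts in all 9 libraries. With genes of the sex pattern left out, the X-linked median was 1.099-fold higher at the first step and 1.363-fold higher at the second (exact permutation p = 0.1 each), and the autosomal median 0.992-fold (exact permutation p = 0.9) and 0.939-fold (p = 0.1, exact). The medians of edgeR's fitted folds for 2L, 2R, 3L and 3R were then 1.009 to 1.023 at the first step and 0.923 to 0.943 at the second. The sex pattern was itself defined by the change from males, and male-high genes far outnumbered male-low ones among those left out. Leaving them out therefore raises the first-step medians by construction, and the first-step values without them are a description.

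Genes called one by one with edgeR's quasi-likelihood test (Benjamini-Hochberg adjusted p under 0.05 over 14038 genes) gave few increases at the first step and many at the second. From 1 to 2 copies, 101 of 2208 X-linked genes (4.57%) and 95 of 11758 autosomal genes (0.808%) were higher, against 1.4% of all genes, and 390 X-linked (17.7%) and 2319 autosomal genes (19.7%) were lower, against 19.6% of all. From 2 to 3 copies, 696 X-linked (31.5%) and 1259 autosomal genes (10.7%) were higher, against 14.0% of all, and 59 X-linked (2.67%) and 1607 autosomal genes (13.7%) were lower, against 11.9% of all. The X thus had the larger share of increases at both steps and the smaller share of decreases at the second. Between the ends, 980 X-linked genes (44.4%) were higher in metafemales than in males and 401 (18.2%) lower (18.3% and 32.6% of all genes), against 1581 (13.4%) and 4132 (35.1%) of the autosomal genes. The male-high genes, 301 X-linked and 1689 autosomal, are by definition among those lower at the first step and between the ends. Of protein-coding genes without a sex pattern, 86 of 1740 X-linked and 580 of 9117 autosomal ones were lower at the first step. Between the ends 94 and 2246 of them were lower. The female level was above the mean of males and metafemales in 33 X-linked and 405 autosomal genes (3.12% of all), and below it in 328 and 1150 (10.5% of all). Genes lower in metafemales alone also lie above that mean, and genes higher in males alone or metafemales alone lie below it. These are therefore not counts of peaks or troughs.

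These counts moved with single libraries. The 101 X-linked increases of the first step became 51 without male replicate 1, 204 without male replicate 2, 52 without female replicate 1 and 56 without female replicate 3. The 696 of the second step became 460 without female replicate 1 and 430 without female replicate 2. The 1607 autosomal decreases became 984, 708 and 943 without female replicates 1, 2 and 3, and 913 and 916 without metafemale replicates 1 and 2. The 59 X-linked decreases became 33, 39, 37 and 30 without female replicates 2 and 3 and metafemale replicates 1 and 2. The 1259 autosomal increases became 713, 799 and 832 without female replicate 2, female replicate 3 and metafemale replicate 2. Scaling by total counts gave 36 X-linked increases against 382 decreases at the first step, and 1034 autosomal increases against 851 decreases at the second. The 33 X-linked genes with females above the mean of the ends became 74 without male replicate 2 and 10 to 20 without male replicates 1 or 3, any female library or metafemale replicate 2. The 328 with females below it became 515 without male replicate 2 and 156 to 195 without male replicate 1 or any female library.

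Single X-linked genes spread widely around these medians. Among 1740 X-linked protein-coding genes without a sex pattern, the first step was 1.12-fold at the median, 0.962- to 1.25-fold between the quartiles, and 0.719- to 1.43-fold between the lowest and highest deciles. The second step was 1.36-fold at the median, with quartiles of 1.1 and 1.77 and deciles of 0.856 and 2.82, which was the broader distribution. The 9117 autosomal genes had medians of 1.02 and 0.932, and their second step also spread more widely, from 0.572 to 2.11 between the same deciles against 0.657 to 1.26 at the first.

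**Figure D2:**
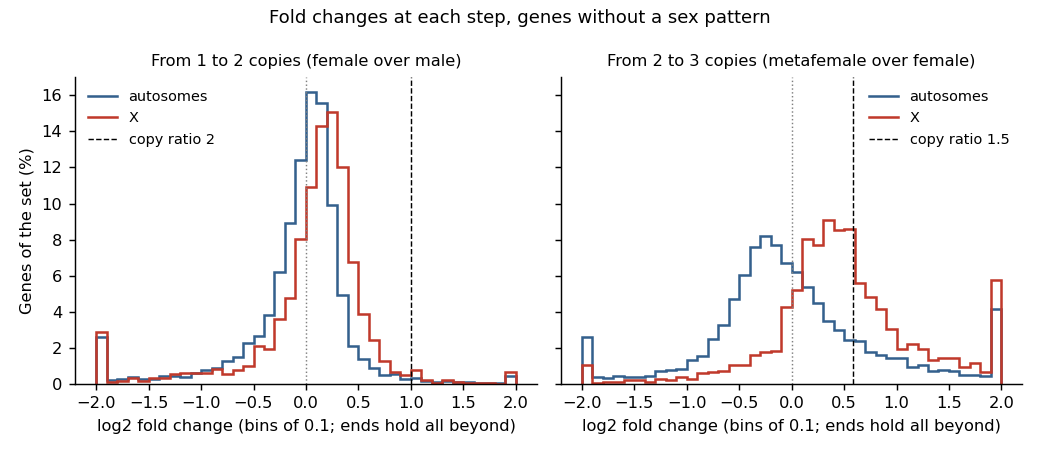
Distribution of fold change at each step of the X series for protein-coding genes without a sex pattern, X-linked and autosomal. The horizontal axis is the fold change on a log2 scale and the vertical axis the percent of genes; for X-linked genes the tallest bin lies at 1.15- to 1.23-fold at the first step (15.1% of genes) and at 1.23 to 1.32 at the second (9.08%), and for autosomal genes at 1.0 to 1.07 (16.2%) and at 0.812 to 0.871 (8.22%).

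Each gene's 95% interval was set against no change and against the copy ratio. At the first step, 1166 of 1902 X-linked genes without a sex pattern (61.3%) had an interval that covered no change and not 2-fold, 78 (4.1%) covered 2-fold and not no change, and 215 (11.3%) lay wholly between them. At the second step, 622 (32.7%) covered 1.5-fold and not no change, 374 (19.7%) covered no change and not 1.5-fold, and 518 (27.2%) covered both. A further 273 genes (14.4%) lay above 1.5-fold and 85 (4.47%) below no change. Between the ends the largest group, 733 genes (38.5%), lay between no change and 3-fold. Of 10065 autosomal genes, 2475 (24.6%) lay below no change at the second step and 624 (6.2%) above 1.5-fold.

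By shape over the 3 doses, the X held 47 rising genes (2 steps called upward), 4 falling, 5 with a peak at 2 copies and 31 with a trough there. The autosomes held 14 rising, 94 falling, 22 with a peak and 87 with a trough. Over all genes tested these classes made up 0.435%, 0.698%, 0.192% and 0.841%. The most frequent X-linked change was a rise at the second step alone, with 612 genes (27.7% of the X, against 9.57% of the autosomes and 12.4% of all). A fall at the second step alone was found for 44 X-linked genes (1.99%) and 1448 autosomal genes (12.3%), against 10.6% of all. A rise at the first step alone, 44 X-linked and 55 autosomal genes, was 0.712% of all, and a fall at the first step alone, 54 and 449 genes, was 3.58%. A further 312 X-linked and 499 autosomal genes were called higher only between the ends (5.82% of all), and 14 and 704 lower (5.11%). Nothing was called for 117 X-linked and 1364 autosomal genes with both intervals within 1.5-fold either way, which are named flat (10.5% of all), and 618 and 4204 genes were unresolved (34.5%).

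**Figure D3:**
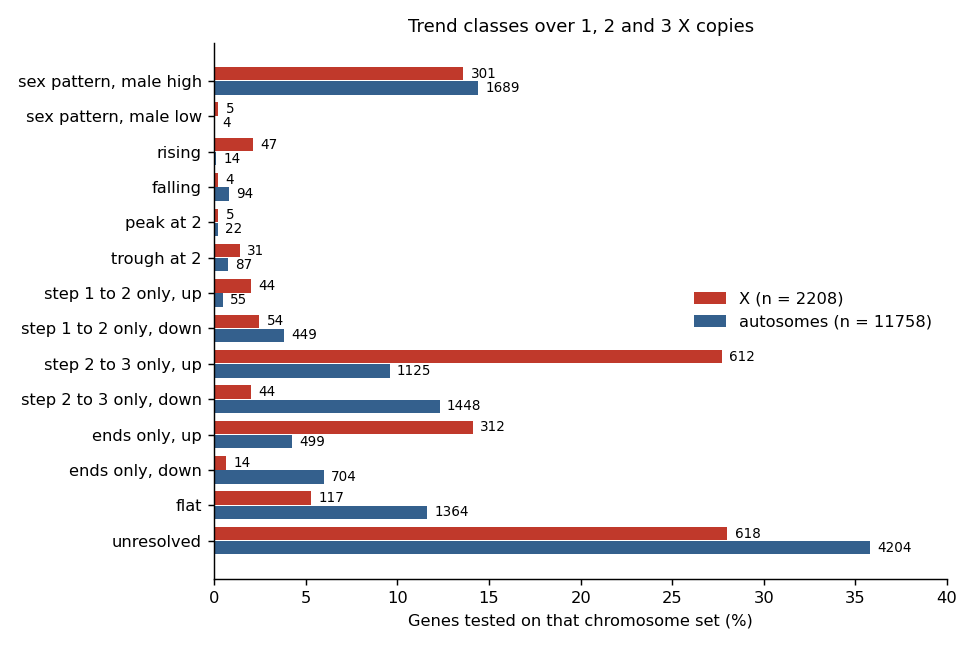
Share of X-linked and autosomal genes in each trend class over 1, 2 and 3 X copies, in percent of the genes tested on the X (2208) and on the autosomes (11758). Bars start at 0. A rise at the step from 2 to 3 copies alone took 27.7% of X-linked and 9.57% of autosomal genes, and the fall at that step 1.99% and 12.3%.

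The order of the libraries was also counted without a test. In 264 X-linked genes (12%) and 139 autosomal genes (1.18%) every library with more X chromosomes was higher than every library with fewer, against 2.88% of all genes. The reverse order was seen in 17 X-linked (0.77%) and 495 autosomal genes (4.21%), against 3.65% of all.

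All 47 rising X-linked genes had their 9 libraries in order without overlap, and 46 coded for protein. Their median fold was 1.42 at the first step (1.23 to 4.77) and 1.51 at the second (1.27 to 6.49), and 2.15 between the ends. The first step stayed below 2-fold in 43 of the 47, and in 35 its whole interval lay below 2. The interval of the second step covered 1.5-fold in 39. Since the class asks for a call at each step, small changes could not enter it and these folds are a description. The class became 21, 80, 12, 20, 14 and 26 genes without male replicate 1, male replicate 2, female replicates 1, 2 and 3, and metafemale replicate 3.

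Among rising X-linked protein-coding genes averaging at least 10 CPM, those with the largest smaller step were lcs, IP3K2 and mamo. lcs (X:21396727-21397316, coordinates of BDGP6.54 throughout) stood at 6.38, 5.99 and 4.63 CPM in the 3 males, 13.7, 27.2 and 15.5 CPM in females, and 47.7, 82.6 and 59.9 CPM in metafemales. It rose 3.31-fold and then 3.38-fold (edgeR log2 1.73 ± 0.3 SE, adjusted p = 0.00248, and 1.76 ± 0.3, adjusted p = 0.00541), so that both steps were alike in size and larger than the change in X copies. IP3K2 (X:13303633-13329303), an inositol trisphosphate 3-kinase, stood at 65.9, 41.2 and 62.4 CPM in males, 112, 94.1 and 103 CPM in females, and 213, 159 and 181 CPM in metafemales. The groups did not overlap, and its steps were 1.82-fold (edgeR adjusted p = 0.00996) and 1.79-fold (adjusted p = 0.0151). The call of the second step of IP3K2 was lost without female replicate 2, female replicate 3 or metafemale replicate 1 (adjusted p 0.0503 to 0.0636).

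mamo (X:13846116-13990527), a BTB zinc-finger transcription factor, stood at 153, 136 and 120 CPM in males, 288, 259 and 248 CPM in females, and 715, 341 and 412 CPM in metafemales. Metafemale replicate 1 was the highest by a wide margin, and the groups did not overlap. mamo rose 1.94-fold (edgeR adjusted p = 0.0272) and 1.85-fold (adjusted p = 0.0359). Its second step was 0.51 on the log2 scale, with adjusted p = 0.0626, without metafemale replicate 1, and 0.89 with all libraries. Leaving out any male or female library also ended the first call (adjusted p 0.0529 to 0.0947), and male replicate 1 or any female library the second (up to 0.107).

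Several rising X-linked genes belong to signalling pathways, and those named here were chosen for their known roles after their values were seen. The JNK pathway kinases Tak1 and hep moved in near-equal steps. hep, the JNK kinase, stood at 37.5, 46.1 and 33.6 CPM in males, 57.8, 56.6 and 56.8 CPM in females, and 80.1, 81.7 and 81.3 CPM in metafemales, and rose by 0.55 and 0.51 on the log2 scale (edgeR adjusted p = 0.0105 and 0.0188). Tak1, a MAP kinase kinase kinase, rose by 0.55 and 0.51 as well (adjusted p = 0.0280 and 0.0369). AMPKalpha, the catalytic subunit of the energy sensor AMP-activated kinase, rose by 0.38 and 0.41, and the small GTPase Cdc42, which controls cell polarity, by 0.46 and 0.40. SkpA, an adaptor of SCF ubiquitin ligases, rose by 0.50 and 0.47. In these 5 genes the log2 steps were of like size, although the copy ratio was 2 at the first step and 1.5 at the second. The calls of Tak1, AMPKalpha and Cdc42 were lost at both steps, and those of hep and SkpA at the second, when some single libraries were left out, including female replicates 1 or 2 for each of them (adjusted p up to 0.122). In the runs that lost a call the log2 steps were 0.35 to 0.57.

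Other members of the class moved more at the second step. Atf3, a stress-responsive bZIP transcription factor, stood at 45.2, 42.7 and 36.6 CPM in males, 58.2, 53.8 and 66.4 CPM in females, and 148, 112 and 120 CPM in metafemales (edgeR log2 0.52, adjusted p = 0.0333, and 1.09, adjusted p = 0.00241). HisRS, the histidyl-tRNA synthetase, rose by 0.40 and 0.83, CrebB, a cAMP-responsive transcription factor, by 0.33 and 0.60, and Vinc, the adhesion protein vinculin, by 0.30 and 0.64. The second-step calls of these 4 genes held without any 1 library, but the first-step call of CrebB was lost in each such run (adjusted p 0.0551 to 0.181) and those of Atf3, HisRS and Vinc in 6 of them each (0.0508 to 0.132). Of the 47 genes, 30 had the larger log2 change at the second step.

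Some autosomal genes also rose with X dose, although their own copy number stayed the same. Fer1HCH (3R:30385573-30388178), the ferritin heavy chain that stores iron, stood at 240.0, 197 and 247 CPM in males, 479, 419 and 419 CPM in females, and 736, 893 and 856 CPM in metafemales. It rose 1.93-fold and 1.89-fold (edgeR log2 0.95 ± 0.14 SE, adjusted p = 0.000944, and 0.92 ± 0.14, adjusted p = 0.00368), with no overlap of the groups. Nepl18 (3R:28875621-28877805), a neprilysin-like metallopeptidase, rose 1.79-fold and 1.78-fold (adjusted p = 0.00735 and 0.0116), from 10.1 to 17.3 CPM through 24.2 to 26.2 CPM to 43.4 to 45.2 CPM. Cubn2, a relative of the scavenger receptor cubilin, rose 1.61-fold and 1.55-fold (adjusted p = 0.0157 and 0.0246). The calls of Cubn2 were lost at the first step without male replicate 2 (adjusted p = 0.0511) and at the second without female replicates 2 or 3 or metafemale replicates 1 or 3 (0.0512 to 0.0858). The 14 rising autosomal genes also included LKRSDH, an enzyme of lysine breakdown, which rose by 0.43 and 0.55, and its first call was lost without male replicate 1 or female replicates 1 or 2 (0.0869 to 0.113). The class became 9, 8, 9, 5, 9 and 8 genes without male replicate 1, female replicates 1, 2 and 3, and metafemale replicates 2 and 3.

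The falling class was mostly autosomal, with 94 genes against 4 on the X. Pu (2R:21175315-21182608), GTP cyclohydrolase I, which starts pterin synthesis, stood at 432, 798 and 520 CPM in males, 95.8, 219 and 139 CPM in females, and 22.8, 28.0 and 40.6 CPM in metafemales. It fell to 0.259-fold and then to 0.202-fold (edgeR log2 −1.95 ± 0.37 SE, adjusted p = 0.00378, and −2.31 ± 0.37, adjusted p = 0.0043), and both male replicate 2 and female replicate 2 were the highest of their groups. TTLL4B, of the tubulin tyrosine ligase-like family, stood at 21.4, 30.8 and 17.7 CPM, then at 4.42, 4.65 and 5.11 CPM, and then at 1.78, 2.41 and 2.36 CPM (adjusted p = 0.000103 and 0.00893). CG2082 fell to 0.32-fold and 0.425-fold, and its second call was lost without female replicate 2 (log2 −0.86, adjusted p = 0.111) or without any metafemale library (0.0706 to 0.0935).

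AGO3 and krimp, both of the falling class, are known from germ cells. AGO3, an Argonaute protein of the piRNA pathway, stood at 338, 321 and 288 CPM in males, 127, 122.7 and 172 CPM in females, and 112, 80.0 and 90.2 CPM in metafemales (edgeR log2 −1.17 and −0.58, adjusted p = 0.00111 and 0.0436). krimp, a Tudor protein of the same pathway, fell by 0.84 and by 3.04 on the log2 scale, from 3.76 to 4.96 CPM in males to 0.265 to 0.317 CPM in metafemales. The second call of AGO3 was lost without male replicates 1 or 3, any female library, or metafemale replicates 2 or 3 (adjusted p 0.0505 to 0.144), and the first of krimp without male replicate 1 or female replicate 1 (0.0572 and 0.0705). Of 12 genes active in germ cells of either sex, 6 were lower at the first step (19.6% of all genes) and 3 at the second (11.9% of all). The 6 included aub and bgcn, which had the sex pattern, and of the other 10 genes 4 were lower at the first step, or 2 without female replicate 1. None of the 12 was higher by edgeR or DESeq2 (1 at the first step at an unadjusted p under 0.05). The 4 falling X-linked genes, CG2901, CG4880, unc and asRNA:CR45009, were below 10 CPM on average, and unc, which acts in the cilia of sensory neurons and sperm, went from 1.37 to 1.68 CPM through 0.427 to 0.616 CPM to 0.0914 to 0.325 CPM. Either call of unc was lost without any 1 of several libraries, among them male replicates 1 or 2 and female replicates 1 or 2 (0.052 to 0.127). The falling autosomal class became 49, 35, 25, 31, 58, 44 and 58 genes without male replicate 1, female replicates 1, 2 and 3, and metafemale replicates 1, 2 and 3. The 4 X-linked genes became 1 without female replicate 2 and 2 without female replicate 3 or metafemale replicates 1 or 2.

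Genes with a peak at 2 copies included an insulin-like peptide. Ilp6 (X:2331493-2334658), which is made in the fat body, stood at 40.4, 49.5 and 38.3 CPM in males, 71.9, 92.6 and 95.6 CPM in females, and 25.7, 26.4 and 35.8 CPM in metafemales. It rose 2.03-fold and then fell to 0.338-fold (edgeR log2 1.02 ± 0.18 SE, adjusted p = 0.00253, and −1.57 ± 0.18, adjusted p = 0.00156), so that with 3 copies of the gene its level was 0.685 of that with 1 (adjusted p = 0.0311). Snx27, a sorting nexin of endosomes, rose 2.07-fold and fell to 0.527-fold, and its second call was lost without female replicates 1 or 3 or metafemale replicates 1 or 3 (adjusted p 0.0643 to 0.0839). The remaining X-linked members were CG15308, CG4615 and pdgy, an acyl-CoA ligase, and the class became 3, 16, 2 and 8 genes without male replicate 1, male replicate 2, female replicate 1 and metafemale replicate 3.

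The autosomes held 22 peaks. Fbp2 (2L:9426784-9427917), fat body protein 2, stood at 3010, 3630 and 4380 CPM in males, 8270, 7870 and 7380 CPM in females, and 4270, 4660 and 4410 CPM in metafemales (edgeR log2 1.09, adjusted p = 0.00195, and −0.82, adjusted p = 0.0137), and male and metafemale libraries overlapped. Its second call was lost without female replicate 2 (adjusted p = 0.053). hll stood at 61.0, 29.8 and 49.6 CPM, then at 190.0, 184 and 192 CPM, and then at 7.03, 46.3 and 32.3 CPM, with metafemale replicate 1 the lowest. The first step of hll was 4.03-fold (adjusted p = 0.0359) and was lost in all but 2 of the runs that left out a library (adjusted p 0.0551 to 0.0958), and the second was 0.152-fold (adjusted p = 0.0124). CG3376 rose 1.66-fold and fell to 0.21-fold. The first call of CG3376 was lost when male replicates 1 or 3, any female library or metafemale replicate 1 was left out (adjusted p 0.054 to 0.143). The autosomal class became 95 without male replicate 2, and 11 to 14 without male replicates 1 or 3, female replicates 2 or 3, or metafemale replicate 2.

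A trough at 2 copies was the more frequent turn. Tob (X:16074717-16091495), an antiproliferative protein of the BTG/Tob family, stood at 38.7, 44.0 and 34.2 CPM in males, 12.6, 12.5 and 11 CPM in females, and 78.4, 45.0 and 39.8 CPM in metafemales. It fell to 0.308-fold and rose 4.53-fold (edgeR log2 −1.70 ± 0.25 SE, adjusted p = 0.000838, and 2.18 ± 0.25, adjusted p = 0.00155), and both outer groups lay above all females. ng2, a new-glue gene of the salivary gland, was at 3.53 to 6.86 CPM in males, 1.95 to 2.94 CPM in females and 24.6 to 48.3 CPM in metafemales, so that its second step of 15.5-fold (adjusted p = 0.00089) exceeded its first of 0.462-fold (adjusted p = 0.0359). The first call of ng2 was lost without male replicates 1 or 3, female replicates 2 or 3, or metafemale replicate 1 (adjusted p 0.057 to 0.136). CG32700 fell to 0.238-fold and rose 3.49-fold, and its second call was lost without female replicates 1 or 3 or metafemale replicate 1 (0.0572 to 0.063).

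On the autosomes, Hsp68 (3R:24055080-24057310), a heat-shock chaperone of the Hsp70 family, stood at 28.9, 30.3 and 28.7 CPM in males, 7.58, 7.58 and 4.28 CPM in females, and 17.9, 22.3 and 17.3 CPM in metafemales. It fell to 0.221-fold and rose 2.96-fold (edgeR adjusted p = 0.000127 and 0.00267), and the 3 groups did not overlap. Calx, a sodium-calcium exchanger, fell to 0.392-fold and rose 3.03-fold (adjusted p = 0.000911 and 0.00192), and CG32444 fell to 0.396-fold and rose 2.45-fold. In Calx and CG32444 the male and metafemale libraries overlapped. The 31 X-linked troughs became 58 without male replicate 2 and 11 to 20 without any 1 of the other 8 libraries, and the 87 autosomal ones became 227 without male replicate 2.

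**Figure D4:**
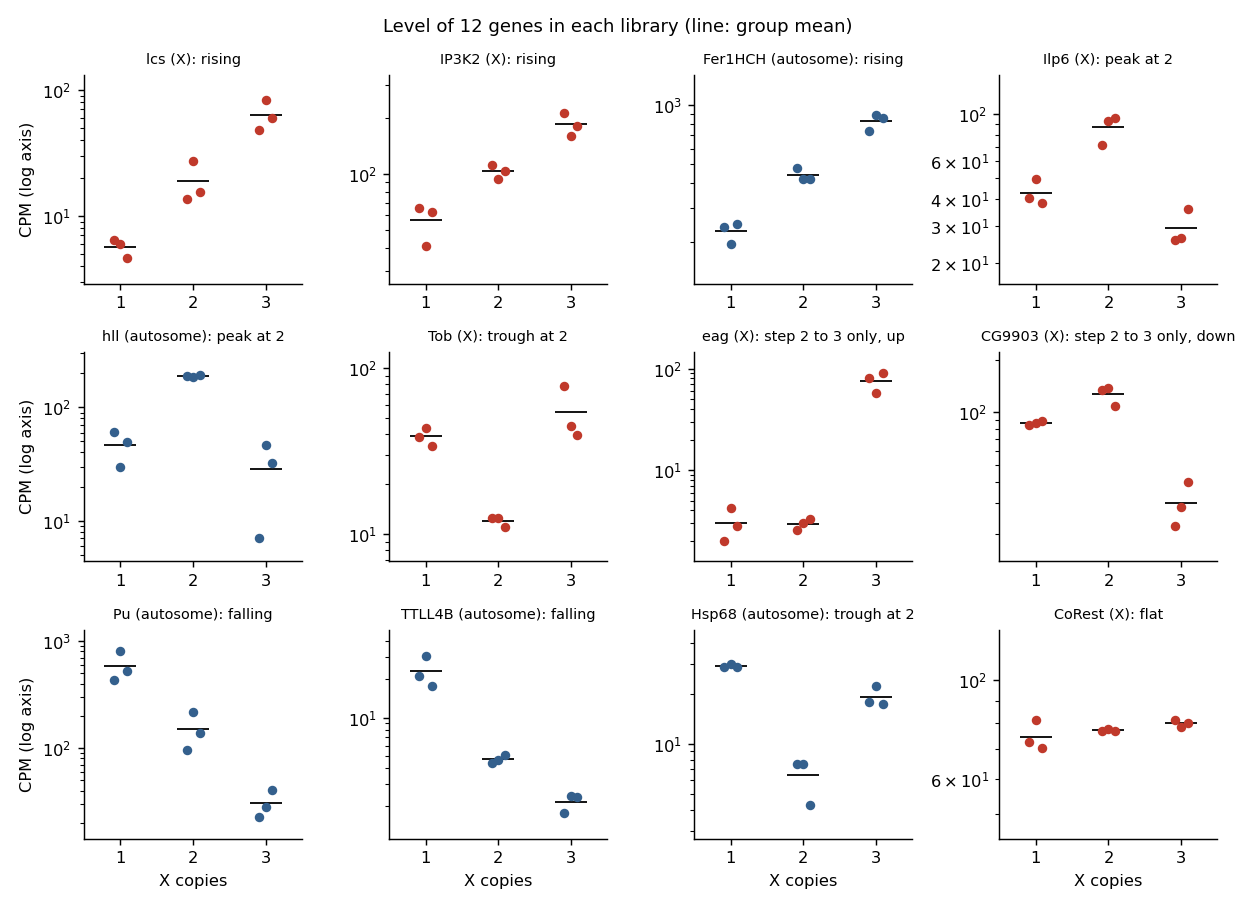
Level of 12 named genes in each library by number of X chromosomes, in CPM on a log scale, a panel per gene. Points are libraries and short horizontal lines mark the group means. lcs, IP3K2 and Fer1HCH climb at both steps, Pu and TTLL4B fall at both, Ilp6 and hll peak at 2 copies, Tob and Hsp68 dip there, eag and CG9903 move only at the second step, and CoRest is level.

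Rises at the second step alone reached large folds. eag (X:14955477-15009989), a voltage-gated potassium channel of neurons and muscle, stood at 2.02, 4.27 and 2.83 CPM in males, 2.54, 2.99 and 3.3 CPM in females, and 79.9, 57.2 and 90.9 CPM in metafemales. Males and females overlapped, and all metafemales were above them, with a step of 25.8-fold (edgeR log2 4.69 ± 0.32 SE, adjusted p = 0.000434). CG4991 rose 17.5-fold (adjusted p = 0.00108). ssp7 rose 20.8-fold (adjusted p = 0.0215), and its call was lost without female replicate 2, female replicate 3 or metafemale replicate 2 (0.0565 to 0.0814). Over all 612 genes of this class the median second step was 1.85-fold and the median first step 1.08-fold, and the class became 396 genes without female replicate 2.

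Autosomal rises at the second step alone were ranked among protein-coding genes averaging at least 10 CPM, with no overlap of females and metafemales. The largest of these included cuticle protein genes, which are expressed by the epidermis around moults. Cpr47Eg was at 0.642 to 2.84 CPM in males, 0.294 to 0.448 CPM in females, and 48.6, 91.5 and 11.1 CPM in metafemales, a step of 131-fold (edgeR adjusted p = 0.00267). Cpr65Ax2 rose 130-fold (adjusted p = 0.0105), but it belongs to a family of near-identical copies, among which reads may have been split. CG15515 rose 152-fold (adjusted p = 0.00399). In all 3 genes metafemale replicate 3 was the lowest of its group and male replicate 3 the highest of the males. The class of 1125 autosomal genes became 748, 620, 694 and 699 without female replicates 1, 2 and 3 and metafemale replicate 2.

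The largest autosomal falls at the second step alone, ranked among genes under the same limits, included that of a glue gene. Sgs5bis, of the glue protein family, stood at 168, 108 and 210.0 CPM in males, 243, 183 and 187 CPM in females, and 2.32, 5.02 and 8.68 CPM in metafemales (edgeR log2 −5.26 ± 0.51 SE, adjusted p = 0.000956). CG5391 fell to 0.0307-fold (adjusted p = 0.00401) and CG42716 to 0.0331-fold (adjusted p = 0.00757). On the X, CG9903 stood at 84.3 to 89.2 CPM in males, 108 to 138 CPM in females and 22.4 to 39.8 CPM in metafemales, a fall to 0.239-fold (adjusted p = 0.00101). Hr4, a nuclear receptor of the ecdysone cascade, stood at 4.22, 54.3 and 5.24 CPM in males, 5.15, 91.5 and 7.44 CPM in females, and 0.402, 0.996 and 1.07 CPM in metafemales. Male replicate 2 and female replicate 2 stood far above the rest in Hr4, and its fall of 5.40 on the log2 scale (adjusted p = 0.0324) was 2.91 without female replicate 2 (adjusted p = 0.111) and was not called without any 1 metafemale library (0.0853 to 0.104). CG2444, high in the same libraries, fell by 2.71 (adjusted p = 0.0247), and by 1.72 without female replicate 2 (adjusted p = 0.0803). The call of CG2444 was also lost without metafemale replicates 1 or 2 (0.0842 and 0.0863). The 44 X-linked falls became 29, 20, 26, 24 and 19 without female replicates 1, 2 and 3 and metafemale replicates 1 and 2, and the 1448 autosomal falls became 893, 636, 864, 800 and 829 without the same libraries.

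Flat X-linked genes kept a level while their copies went from 1 to 3. CoRest (X:19521929-19530896), a corepressor of transcription, stood at 72.6, 81.2 and 70.2 CPM in males, 77.0, 77.6 and 77.0 CPM in females, and 81.4, 78.3 and 80.3 CPM in metafemales. Its interval between the ends ran from −0.11 to 0.31 on the log2 scale, and the male and metafemale libraries overlapped. The same interval was −0.20 to 0.31 for Mrgn1, a ubiquitin ligase, and −0.06 to 0.39 for CG9132. These intervals limit the change to well under the copy ratio and do not show that it is 0.

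Of 20 X-linked genes with a history in dosage and enzyme studies, none passed edgeR's test at the first step, and 0 did at an unadjusted p under 0.05 or with DESeq2. At that step 4.57% of X-linked and 1.4% of all genes were higher, and 17.7% and 19.6% lower. At the second step 4 were higher (31.5% of X-linked and 14.0% of all genes) and 3 lower (2.67% and 11.9%). Between the ends 9 were higher (44.4% of X-linked and 18.3% of all genes) and 1 lower (18.2% and 32.6%). The 4 that rose were the eye pigment gene v, which encodes tryptophan dioxygenase, and the metabolic enzyme genes Hex-A (hexokinase), Gapdh2 (glyceraldehyde-3-phosphate dehydrogenase) and Fum1 (fumarase). Fum1 stood at 80.6, 56.4 and 81.7 CPM in males, 101, 82.0 and 96.4 CPM in females, and 265, 351 and 292 CPM in metafemales, a second step of 1.70 on the log2 scale (edgeR adjusted p = 0.00123), above the 1.5-fold copy ratio. The 3 that fell were w, whose mutant allele the attached X carries, Sgs4, a glue gene, and B-H1, a homeobox gene. Zw, glucose-6-phosphate dehydrogenase, and dor, a vacuolar sorting gene, were flat. Without single libraries the second step had 2 to 4 higher and 0 to 3 lower. The calls of v and Gapdh2 each ended in such runs (adjusted p 0.0515 to 0.0572), as did those of w, Sgs4 and B-H1 (0.0509 to 0.123), while those of Fum1 and Hex-A held in every one.

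Complexes with subunits on both kinds of chromosome gave a comparison within a pathway. At the first step no subunit of the complexes examined was higher, on the X (63 genes without a sex pattern) or on the autosomes (352), by edgeR, while 1 and 3 were at an unadjusted p under 0.05, and 2 and 4 with DESeq2. At that step 1 X-linked and 16 autosomal subunits were lower. Among all protein-coding genes without a sex pattern, 86 of 1740 X-linked and 580 of 9117 autosomal genes were lower, and 87 and 89 higher. Over all genes, male-high ones included, 1.4% were higher and 19.6% lower. At the second step, 43 X-linked subunits were higher and none lower, also at an unadjusted p or with DESeq2 (14.0% and 11.9% of all genes), with a median of 0.69 on the log2 scale, whereas 76 autosomal subunits were higher and 56 lower, with a median of 0.14. Among all protein-coding genes without a sex pattern the median second step was 0.442 on the X and −0.102 on the autosomes. Of these, 38.9% of X-linked and 13.1% of autosomal genes were called higher. Over all genes tested, male-high ones included, the median was 0.0. Without single libraries the second-step counts were 29 (without female replicate 2) to 47 higher on the X, and on the autosomes 32 (without female replicate 3) to 89 higher and 16 (without female replicate 2) to 72 lower. Each of the highest counts was reached without male replicate 2. With female replicate 2 left out the medians were 0.71 and 0.14.

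In the cytosolic ribosome, 9 of 13 X-linked protein genes rose at the second step (median log2 0.68) and none of 67 autosomal ones did (median 0.18; 1 at an unadjusted p under 0.05 and 1 with DESeq2). The median level over the X-linked genes, relative to the female mean, was 0.934, 0.714 and 1.07 in males, 1.01, 0.991 and 0.991 in females, and 1.45, 1.7 and 1.66 in metafemales. The autosomal medians were 0.969, 1.23 and 1.17 in metafemales, below the X-linked ones in each library. RpS6, of the small subunit, rose by 0.64 (edgeR adjusted p = 0.0201) and RpL7A, of the large subunit, by 0.60 (adjusted p = 0.0238), near the copy ratio of 1.5. The 9 X-linked rises were 2 or 3 without any 1 female library or metafemale replicates 2 or 3, and the calls of RpS6 and RpL7A were lost in each of these runs (adjusted p 0.0527 to 0.0863). Without female replicate 2 the median was 0.70.

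The mitochondrial ribosome had 10 of 11 X-linked and 12 of 62 autosomal genes higher at the second step (medians 0.93 and 0.32). These were 7 to 11 and 2 to 18 without single libraries, with 2 or 3 autosomal genes without any 1 female library or metafemale replicates 1 or 2, 6 without male replicate 1, and the highest counts without male replicate 2. For the nuclear-encoded subunits of oxidative phosphorylation, 13 of 13 X-linked and 53 of 59 autosomal genes rose (medians 1.39 and 1.07), so autosomal members rose as well and X-linked ones lay above them. The 13 X-linked rises held without any 1 library, and the 53 became 26 to 32 without any 1 female library or metafemale replicates 1 or 2. The proton pump of vacuoles, the V-ATPase, had 2 of 2 X-linked and 11 of 20 autosomal subunits higher and 1 autosomal subunit lower (medians 1.34 and 0.49). The 11 became 3 to 5 without the same libraries and 7 without male replicate 1. Vesicle coat and Sec genes of secretion had 4 of 5 X-linked and 0 of 21 autosomal members higher, also at an unadjusted p or with DESeq2 (medians 0.61 and 0.03).

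In the proteasome, Mediator and splicing lists the share of autosomal members lower at the second step was above the 11.9% of all genes. In the proteasome, the protein-degrading machine, 28 of 29 autosomal subunits fell at the second step (median −0.79), while none of 5 X-linked subunits passed the test, also at an unadjusted p or with DESeq2 (median −0.21). Relative to the female mean, the autosomal median was 0.458, 0.662 and 0.643 in the metafemales and the X-linked median 0.651, 0.937 and 0.934, with metafemale replicate 1 the lowest in both. Of the Mediator subunits, which link transcription factors to RNA polymerase II, 13 of 23 autosomal genes fell (median −0.51) and neither X-linked gene was called (median 0.40), although both were higher at an unadjusted p under 0.05 and with DESeq2. Splicing factors had 10 of 29 autosomal members lower (median −0.31) and 1 of 3 X-linked higher (median 0.40). The chaperonin CCT and RNA exosome had 3 of 4 X-linked genes higher and 1 of 13 autosomal lower (medians 0.40 and −0.12), and the nucleoporins 1 of 4 higher and 2 of 17 lower (0.18 and −0.29). In RNA polymerase II the single X-linked subunit had a second step of 0.30 and the 12 autosomal ones a median of −0.31 with 1 lower. The shares of lower autosomal genes in these last lists were not above that of all genes. Without single libraries the lower autosomal genes were 11 to 28 in the proteasome, 3 to 14 in Mediator, 1 to 14 in splicing, 0 to 2 in CCT and exosome, 0 to 6 among nucleoporins and 0 to 5 in RNA polymerase II. For all of these but CCT and exosome the lowest count was reached without female replicate 2, and the highest was reached without male replicate 2 in every one. The X-linked increases were 0 to 4 in CCT and exosome and 0 or 1 in the nuclear pore. In each of these complexes the X-linked median was above the autosomal one under all 4 scalings, but the sign of the autosomal vesicle-coat median turned (−0.01 with scaling by total counts).

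**Figure D5:**
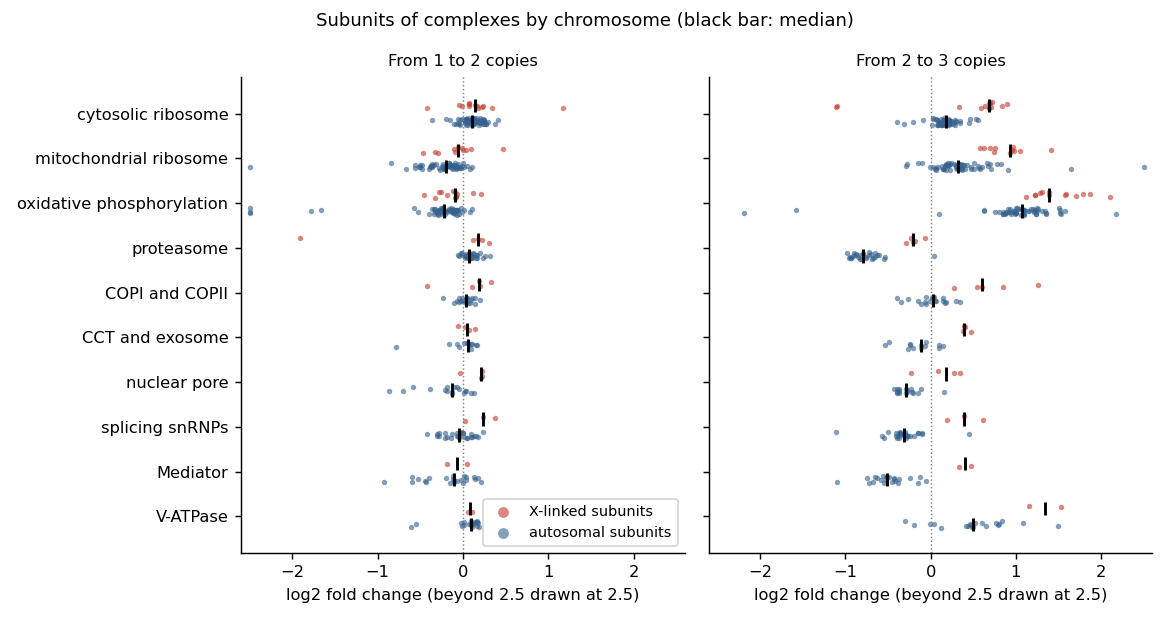
Log2 fold change of complex subunits at the step from 1 to 2 and from 2 to 3 X copies, X-linked and autosomal subunits apart. Each small point is a gene without a sex pattern and each bar the median of its group; at the second step the X-linked medians lie above the autosomal ones in each complex plotted, as in the cytosolic ribosome (0.68 against 0.18) and the proteasome (−0.21 against −0.79).

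The X-linked gene Sxl and the autosomal gene msl-2 were read beside the dose. Sxl stood at 114, 139 and 91.2 CPM in males, 248, 231 and 243 CPM in females, and 324, 250.0 and 281 CPM in metafemales, a first step of 1.07 on the log2 scale (edgeR adjusted p = 0.00132) and a second of 0.24 (adjusted p = 0.317). msl-2, the subunit of the MSL complex that Sxl represses, fell by 1.15 at the first step (adjusted p = 0.00264) and had a second step of −0.46 (adjusted p = 0.126). Of 8 autosomal dosage compensation genes without a sex pattern, 1 was lower at the first step (19.6% of all genes) and 5 at the second (11.9%). None was called higher at either step. The 5 became 1 to 6 without single libraries and 0 with scaling by total counts. Second-step calls of msl-3 (−0.66) and mle (−0.35) were each lost without some single libraries. Levels of whole genes do not separate the sex-specific transcripts of Sxl.

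Some markers of tissues and of stress differed at the second step as well, and their part in the results above was not tested. Of 18 larval tissue markers tested, 2 were higher and 6 lower at the second step (14.0% and 11.9% of all genes), and their summed level was 35610 to 54170 CPM in males, 52920 to 65440 CPM in females and 42250 to 44220 CPM in metafemales. The glue genes Sgs3, Sgs7 and Sgs8 of the salivary gland and the fat body genes Fbp1, Fbp2 and Lsp2 fell, and the muscle actin Act57B and the blood cell gene Hml rose. Both rises lost their call without female replicates 2 or 3 or metafemale replicate 1, Act57B also without metafemale replicate 2 and Hml without metafemale replicate 3 (adjusted p 0.0534 to 0.0934). The fall of Fbp2 was lost without female replicate 2 (0.053), and that of Lsp2 without male replicate 1 or any 1 female or metafemale library (0.0539 to 0.111). Without male replicate 2 the list had 4 higher. Fbp1, a receptor for storage proteins, stood at 2820, 5720 and 3370 CPM in males, 13300, 13300 and 11800 CPM in females, and 720.0, 2540 and 3520 CPM in metafemales, with a first step that missed the threshold (edgeR adjusted p = 0.0517). Glue and fat body genes are known to change their level within the last larval stage, and the part of stage in these results was not tested.

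Of 20 stress and growth-delay genes, 8 rose and 1 fell at the second step (14.0% and 11.9% of all genes). At the first step none rose by edgeR, at an unadjusted p under 0.05 or with DESeq2, where 1.4% of all genes were higher, and 1 was lower (19.6% of all). The gene lower at the first step was Ilp8, and this call was lost without any 1 female or metafemale library (edgeR adjusted p 0.0682 to 0.0932). Without single libraries the second-step counts were 7 to 9 higher and 0 or 1 lower. Ilp8, a relaxin-like peptide that delays development when tissues are damaged, had 0 counts in the 3 females, 0.0381 to 1.05 CPM in males, and 10.2 to 13 CPM in metafemales. The JAK/STAT ligand gene upd3, on the X, stood at 1.28, 0.565 and 0.934 CPM in males, 0.984, 0.6 and 0.901 CPM in females, and 8.99, 5.09 and 7.99 CPM in metafemales, a step of 3.15 on the log2 scale (edgeR adjusted p = 0.00171). Xrp1, a transcription factor of the cellular stress response, rose by 0.47 (adjusted p = 0.014), and puc, the phosphatase that limits JNK signalling, by 0.59 (adjusted p = 0.0317). Hsp83, the Drosophila Hsp90, fell by 0.68 (adjusted p = 0.0286). The call of Xrp1 was lost without female replicate 2 (0.0598), that of puc without male replicate 1, any 1 female library or metafemale replicates 1 or 3 (0.053 to 0.0968), and that of Hsp83 without any 1 female library or metafemale replicates 1 or 3 (0.0544 to 0.0956).

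The X-linked rise was spread along the chromosome. In bins of 4 Mb, the median first step of protein-coding genes without a sex pattern was 1.104- to 1.132-fold and the median second step 1.29- to 1.417-fold, with the lowest value from 4 to 8 Mb (281 genes) and the highest beyond 20 Mb (120 genes). With X-linked genes split into 4 equal groups by mean level, the first step was 0.994-fold in the lowest group, 1.085- and 1.141-fold in the next groups, and 1.176-fold in the highest. Autosomal genes split in the same way had first steps of 0.927-, 0.972-, 1.028- and 1.078-fold, so this order was not particular to the X. The X-linked second step had no such order, at 1.4-, 1.31-, 1.368- and 1.387-fold from the lowest to the highest group. The share of X-linked genes called higher at the second step was 24.1% in the lowest group and 46.0% in the highest, and the counts behind low genes limit what can be called there.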

How the data were processed

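RNA was sequenced from 9 libraries of whole larvae, 3 each of males, normal females and metafemales, by their labels. The authors trimmed reads and, per the labels, named HISAT2, StringTie, Cuffmerge and Ensembl release 102 among their tools, and deposited estimated read counts per transcript as whole numbers (unit: expected counts, not normalised). The strandedness of counting was not given in the sources used here, so overlapping and antisense genes are uncertain. Of 34919 reference transcripts, 34750 were paired by identifier with a gene of BDGP6.54 (Ensembl release 115) and summed to 17715 genes. The 169 unpaired transcripts, 0.0589 to 0.115% of the counts, and 8017 assembled ones were left out. Library totals are in the report.

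After edgeR 4.0.16 filterByExpr by group, 14038 genes were tested with TMM scaling and the quasi-likelihood test in 1 fit of 3 groups (R 4.3.3), with Benjamini-Hochberg adjustment over all genes. Levels are TMM-scaled CPM computed from the deposited counts. Intervals are 95% intervals of the fit, and medians over genes were tested by exact permutation of libraries. Named genes were, for each trend class, X-linked and autosomal apart, the 3 genes with the largest smaller called step, among protein-coding genes averaging 10 CPM or more whose groups called different did not overlap, and for flat genes the 3 with the narrowest bounds. Members of lists of at most 20 genes could also be named. Members and lists were chosen with earlier results of these data known. The fit was tested on simulated data. DESeq2 1.42.0, 3 other scalings, 2 other filters, a fold minimum, a 4-fold sex pattern, a fit of the compared groups only, a replicate block and leaving out each library were tried. No sequence was used here.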

Additional observations from a re-analysis of the deposited data

Results flagged for a closer look

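Outside the gene table, 18 assembled transcripts had at least 10 counts in each metafemale library and 0 in each of the 6 male and female libraries. By the same criterion, 5 were found in females alone, 232 in males alone, and 2 in females and metafemales. These transcripts carry no gene name in the files and were used in no comparison.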

How the results depend on the processing

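No called step of the genes named for a trend class reversed under any alternative, nor did the slope where it was computed. The uncalled X-linked first-step median changed sign as given in the report. At the second step 1259 autosomal genes were higher and 1607 lower. This balance turned with total-count scaling (1034 against 851) and without female replicate 2 (713 against 708). Skipping the filter on low counts, fitting only the compared groups or a 4-fold sex pattern kept every count within 1.5 times. Total-count scaling moved the median of all genes by −0.105 at the first step. It gave X-linked counts of 36 (higher, first step), 649 (higher, ends), 14 (curvature higher, females above the mean of the ends), 10 (rising), 2 (peak), 18 (trough) and 20 (rise at the first step only), autosomal counts of 33 (higher, first step), 851 (lower, second step), 187 (curvature higher, against 1126 lower and, as TMM gives, 405 and 1150), 2 (rising), 27 (falling), 9 (peak), 18 (rise at the first step only) and 780 (fall at the second step only), and medians of −0.076 (X, first step), −0.229 and −0.143 (autosomes). TMM on autosomal genes gave 155 X-linked increases at the first step, 80 rising, 2 falling, 60 autosomal falling, 37 autosomal peaks, and second-step medians of 0.522 (X) and −0.029 (autosomes). DESeq2 size factors gave 67 X-linked rises at the first step only, 39 autosomal peaks and −0.083 for the autosomal second step. At least 10 counts in every library, which drops genes at 0 in a group, gave X-linked 43 higher and 83 lower (first step), 106 lower (ends), 192 lower (curvature), 20 rising, 3 peak, 18 rise at the first step only and 20 male-high, autosomal 30 and 611, 2583, 553, 4 rising, 5 peak, 21 and 134, and first-step medians of 0.106 and −0.044. DESeq2 gave X-linked 223 higher (first step), curvature 60 and 656, 119 rising, 16 peak, 50 trough and 83 rise at the first step only, and autosomal 255, 932 and 2412, 40 rising, 154 falling, 79 peak, 150 trough and 127. A minimum fold of 1.5 gave 52 X-linked and 59 autosomal increases at the first step, 12 and 6 rising, 3 and 8 peak, 41 autosomal falling and 256 autosomal curvature higher. Deviations from the group means correlated by −0.3 to 0.24 between libraries of like replicate number. Pairs of unlike number were not set beside them, so whether the numbers pair the samples is not settled. With a replicate block, X-linked counts were 66 (higher, first step), 17 and 153 (curvature), 27 rising, 2 falling and 12 trough, and autosomal 57, 249 and 659, 8 rising, 41 falling, 9 peak, 57 trough and 36 rise at the first step only. Leaving out single libraries gave, as lowest to highest, X-linked counts of 51 to 204 higher at the first step, 430 to 812 higher and 30 to 77 lower at the second, curvature 10 to 74 higher and 156 to 515 lower, 12 to 80 rising, 1 to 4 falling, 2 to 16 peak, 11 to 58 trough, 23 to 103 rise at the first step only, and 396 to 668 rise and 19 to 52 fall at the second only. The autosomal ranges were 51 to 217, 713 to 1629 and 708 to 2096, curvature 118 to 1064 and 685 to 1784, 5 to 15 rising, 25 to 115 falling, 11 to 95 peak, 62 to 227 trough, 27 to 97, and 620 to 1356 and 636 to 1843. The autosomal second-step median was −0.142 to −0.085, the X-linked first-step median −0.014 to 0.045, the X minus autosome steps 0.142 to 0.167 and 0.541 to 0.567, and the slope 0.339 to 0.371. Among single named genes, total-count scaling ended the calls of mamo and Cubn2 at both steps, CG15308 and CG3376 at the first and CG2082 at the second, a minimum of 10 counts those of mamo, CG15308, ng2, Cubn2, hll and CG3376 at the first, and the replicate block those of ng2, hll and CG3376 at the first. The cause of these moves was not tested except where stated.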

Other observations

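Noncoding RNA genes and the mitochondrial genome were described in the same way. Of noncoding RNA genes without a sex pattern, the median fold was 1.207 from 1 to 2 copies and 1.188 from 2 to 3 for 107 X-linked genes, and 0.97 and 0.819 for 677 autosomal ones. At the second step 10 X-linked noncoding genes were higher and 2 lower, and 25 autosomal ones were higher and 70 lower (edgeR, adjusted p under 0.05). The lower genes, 2 of 107 and 70 of 677, were in neither case a larger share than the 11.9% of all genes. The X-linked share higher, 9.35%, and the autosomal one, 3.69%, were below the 14.0% of all genes, and without single libraries these counts were 5 to 12 and 0 to 5 on the X and 13 to 33 and 38 to 79 on the autosomes. The 23 genes of the mitochondrial genome that were tested had medians of 1.241- and 1.674-fold. None was called at the first step, by edgeR, at an unadjusted p under 0.05 or with DESeq2, and 4 (17.4%, against 14.0% of all genes) were higher at the second and 8 between the ends (18.3% of all). The 4 became 12 without male replicate 2 and 0 without female replicates 1 or 3 or metafemale replicate 1, 1 without female replicate 2 or metafemale replicate 2, and 2 without metafemale replicate 3. All 11 regulators of the spermatocyte program, such as aly and can, were lower at the first step (19.6% of all genes), and their summed level was 107.9 to 117.7 CPM in males, 16.23 to 18.74 CPM in females and 14.74 to 16.65 CPM in metafemales. Of 28 chromatin and Mediator genes, 1 was higher and 11 lower at the second step (14.0% and 11.9% of all), with a median of −0.39 on the log2 scale. The 11 were all autosomal and included the deacetylase gene HDAC1 and the insulator genes su(Hw) and BEAF-32. Without single libraries the lower genes of the list were 3 to 19, with 19 without male replicate 2, 4 without female replicate 2, 3 without female replicate 3, 5 without metafemale replicates 1 or 2 and 6 without metafemale replicate 3. The 1 higher gene, Nurf-38, was not called without any 1 female library or metafemale replicates 1 or 2, and scaling by total counts gave 1 higher and 4 lower.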
